A study of Mus musculus with 12 samples.

Results

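The comparison described here asks what PTSO, a compound derived from garlic, changed in CMT-93 cells that were also given antigens of Trichuris muris, the mouse whipworm. CMT-93 is a line of epithelial cells established from a mouse rectum. The libraries were chosen by the treatment label: 3 libraries labelled PTSO + T. muris and 3 labelled T. muris, 6 of the 12 in the series. The remaining 6, labelled PTSO and Control, enter only where cells without antigens are named. PTSO + T. muris cells received PTSO at 20 µM 30 minutes before antigens were added at 100 µg/mL. T. muris cells received the vehicle in place of PTSO and the same antigens. All were harvested after 6 hours, and the labels give no genetic change in any group. The series title names LPS, whereas every sample label and the design text speak of T. muris, and groups were formed by sample label. Nothing in the labels tells whether replicate libraries stem from separate cultures, so the p-values measure only the spread between these samples.

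Selenoproteins carry selenocysteine, an amino acid read from a UGA codon that would otherwise end translation, and many of them reduce peroxides or disulfides. Their mRNAs differ in how far their abundance follows the supply of selenium, with Gpx1, Selenow and Selenoh among the more sensitive ones. Heat shock proteins of the HSP70 family fold other proteins, and their inducible members are switched on by the transcription factor HSF1 when proteins misfold. The rectal and colonic epithelium absorbs salt and water and meets the whipworm directly, because the worm lives within it.

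PTSO + T. muris cells differed from T. muris cells in a small set of strongly changed genes and a larger set of slightly changed ones. The selenoprotein mRNAs Selenow, Selenoh and Gpx1 rose 1.75-fold to 2.75-fold, with no overlap between the groups. The inducible HSP70 genes Hspa1a and Hspa1b rose, as did P2rx7, which encodes an ATP-gated cation channel. The vitamin D receptor gene Vdr, the cadherin gene Cdh3, and ion and water transport genes including Clca3b, Atp1b1, Aqp1 and Aqp5 fell. The alarmin gene Il33 and the copper oxidase gene Cp fell as well.

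Total counts were 19.6 to 26.1 M in the PTSO + T. muris libraries and 16.7 to 34.5 M in the T. muris libraries. The first principal component, with 25.2% of the variance, placed the PTSO + T. muris libraries at -19.7 to -10.9 and the T. muris libraries at 10.2 to 19.7. The summed level of 12 intestinal epithelial markers was 8670 to 9090 CPM (counts scaled to library size) in PTSO + T. muris and 8710 to 8810 CPM in T. muris libraries. Among these markers Cdx1 had 0 counts, and Krt20 and Cdx2 had 84 and 104 counts over the 6 libraries, while Epcam, Cdh1, Krt8, Krt18 and Krt19 each had 87583 or more. The goblet cell genes Muc2 and Tff3 also had 0 counts. The 16 leukocyte markers summed to 93.4 to 106 CPM in PTSO + T. muris and 110 to 114 CPM in T. muris libraries, which do not overlap. Cd14 and Kit carried most of that sum, Ptprc had 8 counts in all, and Cd3d, Cd8a and Ms4a1 had 0. The 14 fibroblast and endothelial markers summed to 5.89 to 7.73 CPM in PTSO + T. muris and 8.73 to 8.89 CPM in T. muris libraries, also without overlap, with Col3a1, Dcn, Lum, Pdgfrb and Emcn at 0. Of the 4 leukocyte and 5 fibroblast and endothelial markers tested, 0 were called by edgeR, DESeq2 or limma-voom, and 2 and 3 had an unadjusted p under 0.05. The part of these shifts in the results was not tested. In bulk RNA, fewer cells of a type and less RNA per cell cannot be told apart.

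Of 14480 genes tested, 479 were called at an adjusted p under 0.05 in edgeR's quasi-likelihood test on the 6 libraries, which is 3.31% of the genes. Of these, 195 were higher in PTSO + T. muris (1.35%) and 284 were lower (1.96%). The changes were mostly small. Their median size was 0.245 on the log2 scale, 423 were under 0.5, and 18 were at least 1, of which 7 were higher and 11 lower. The groups did not overlap in 472 of the 479 genes, or 98.5%, against 2769 of all genes tested, or 19.1%. The plot of all genes tested shows Hspa1a and P2rx7 far above the rest, and Selenow, Selenoh and Hspa1b standing clear of genes of like abundance. The count was 212 without PTSO + T. muris library 2, and 308, 279 and 265 without T. muris library 1, 2 or 3. It was 94 where all 12 libraries shared one spread, and 171 genes were called whichever of the 6 libraries was left out.

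**Figure D1:**
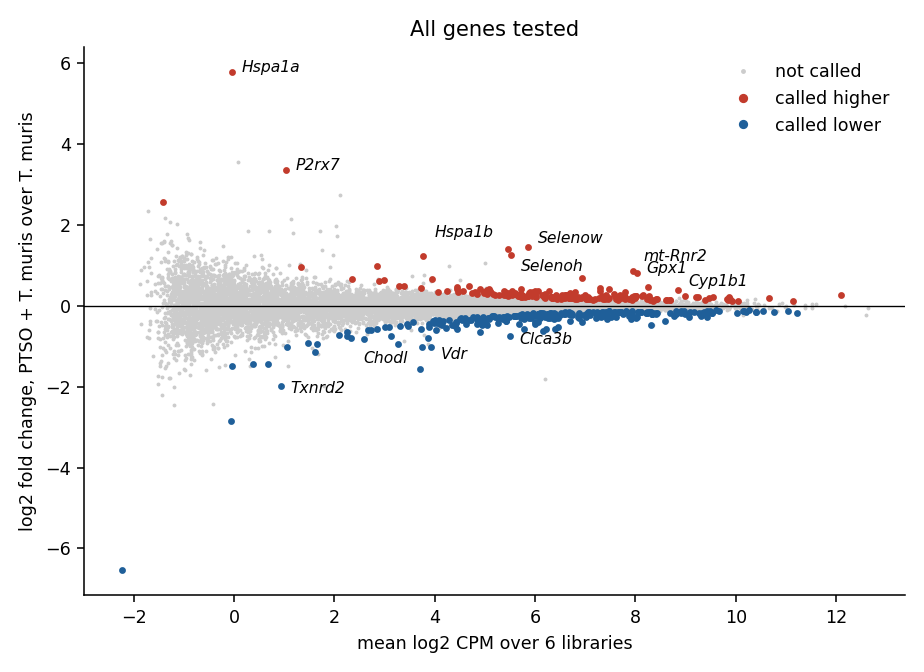
Mean log2 CPM over the 6 libraries (x axis) and log2 fold change of PTSO + T. muris over T. muris (y axis) for the 14480 genes tested. Points stand for genes, in red where called higher (195), blue where called lower (284) and grey where not called. Hspa1a at 5.77 and P2rx7 at 3.36 stand above the other labelled genes.

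Selenoprotein mRNAs moved in both directions. The reading frame around the selenocysteine codon is shown for the 7 selenoprotein genes that passed the test, since this codon is what they share. The sequences come from GENCODE M21 transcripts (GRCm38), 5′ to 3′ on the coding strand, and capitals mark the selenocysteine codon.
Selenow: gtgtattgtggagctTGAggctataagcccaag
Selenoh: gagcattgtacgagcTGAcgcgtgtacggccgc
Gpx1: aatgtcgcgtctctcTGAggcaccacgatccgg
Txnrd1: ctccagtctggctgcTGAggt
Sephs2: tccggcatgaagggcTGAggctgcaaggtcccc
Dio2, first selenocysteine codon: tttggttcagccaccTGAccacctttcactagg
Dio2, last selenocysteine codon: aatttcagcaagagaTGAattctagat
Txnrd2: actgtgactggttgcTGAggc
The codon stands early in Selenow (codon 13 of 88, chromosome 7), Sephs2 (63 of 452, chromosome 7), Gpx1 (47 of 201, chromosome 9) and Selenoh (38 of 123, chromosome 2). In Txnrd1 (612 of 613, chromosome 10) and Txnrd2 (526 of 527, chromosome 16) it is the last codon but 1. Dio2 (chromosome 12) has such codons at 130 and 263 of 266.

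Selenow, which encodes a small thioredoxin-fold selenoprotein, had 99.5, 96.8 and 92.7 CPM in the PTSO + T. muris libraries, against 34.1, 38.8 and 32.0 CPM in the T. muris libraries. All 3 PTSO + T. muris libraries lay far above the highest T. muris library. The log2 fold change was 1.46 ± 0.061 (SE), a 2.75-fold rise with adjusted p = 2.24e-15. Selenoh, which encodes a nucleolar selenoprotein, had 75.0, 66.5 and 71.1 CPM with PTSO + T. muris and 32.1, 29.4 and 27.4 CPM with T. muris. Its log2 fold change was 1.25 ± 0.068 (adjusted p = 5.97e-13). The groups again did not overlap. Gpx1, the cytosolic glutathione peroxidase that reduces hydrogen peroxide, had 352, 340 and 345 CPM in PTSO + T. muris libraries and 191, 199 and 201 CPM in T. muris libraries. The libraries of each group lay close together, and the log2 fold change was 0.81 ± 0.037 (adjusted p = 1.2e-14).

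The thioredoxin reductases, which keep thioredoxin reduced with NADPH, did not move together. Txnrd1, the cytosolic enzyme, rose by 0.25 ± 0.037 on the log2 scale, with 274 ± 5.71 CPM in PTSO + T. muris and 231 ± 3.81 CPM in T. muris libraries (mean ± SD, n = 3 each). Txnrd2, the mitochondrial enzyme, had 19, 36 and 14 counts with PTSO + T. muris and 109, 137 and 46 counts with T. muris. It fell by 1.98 ± 0.31 on the log2 scale (adjusted p = 0.000241). These low counts varied widely elsewhere in the series, with 144, 166 and 11 counts in the PTSO libraries and 173, 46 and 49 in the Control libraries. In the fit of all 12 libraries the SE for Txnrd2 was 0.886, and it was not called. Txnrd3, the third member, had a log2 fold change of 0.00 ± 0.097.

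Sephs2, itself a selenoprotein, makes the selenophosphate that serves as selenium donor for selenocysteine. It had 42.7, 46.0 and 46.1 CPM in PTSO + T. muris libraries, below the 72.7, 63.8 and 63.1 CPM in T. muris libraries, and fell by 0.57 ± 0.063 on the log2 scale (adjusted p = 9.88e-07). Dio2, the deiodinase that activates thyroid hormone, had 19.2, 15.9 and 16.2 CPM with PTSO + T. muris and 24.1, 22.8 and 24.7 CPM with T. muris. It fell by 0.48 ± 0.094 (adjusted p = 0.0025). The groups overlapped for neither gene.

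Of 24 selenoprotein genes in the table, 21 passed the filter on low counts, and 4 of these were called higher and 3 lower. That is 33.3% of those tested, against 3.31% of all genes. Dio1, Dio3 and Selenov had 19, 1 and 0 counts over the 6 libraries and were not tested. The same 7 genes passed whichever of the 6 libraries was left out, and under RLE and upper-quartile scaling the counts were also 4 and 3. In the fit of all 12 libraries the calls of Txnrd1 (adjusted p = 0.141), Dio2 (adjusted p = 0.505) and Txnrd2 (adjusted p = 0.571) ended. The list as a whole had no direction, with a median log2 fold change of 0.002 (-0.006 under upper-quartile scaling, added after seeing the data) and 0.003 over all genes. The plot of the 21 genes shows the other 14 mostly close to 0. Gpx4, which reduces lipid peroxides, was at 0.07 ± 0.043, and Gpx2, the gastrointestinal glutathione peroxidase, at -0.16 ± 0.10. Msrb1 was at 0.15 ± 0.11 (adjusted p = 0.573) and Gpx3 at -0.47 ± 0.26 (adjusted p = 0.409). Selenof, Selenom, Selenok, Selenos and Selenot, which belong to the endoplasmic reticulum, had values between -0.14 and 0.13. Selenop, the selenium carrier, had 18.4 ± 2.76 CPM with PTSO + T. muris and 20.4 ± 0.963 CPM with T. muris. Selenoo, a mitochondrial member, was at 0.32 ± 0.11 with no overlap between the groups and adjusted p = 0.107.

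**Figure D2:**
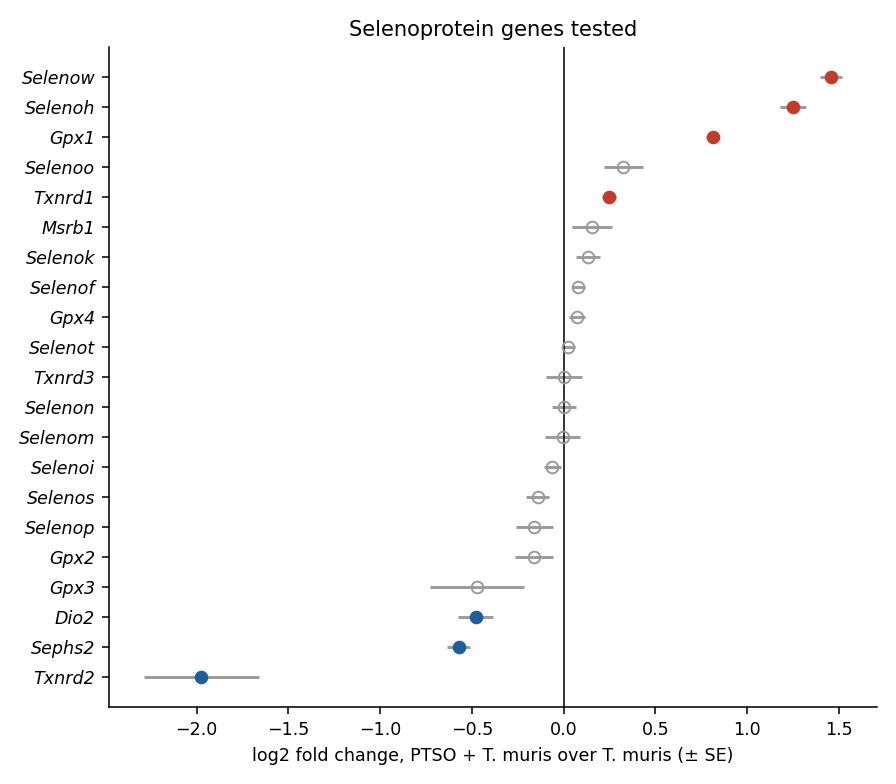
Log2 fold change of PTSO + T. muris over T. muris (x axis, bars ± SE) for the 21 selenoprotein genes tested. Filled points passed the test (red higher, blue lower) and open grey points did not. Selenow (1.46), Selenoh (1.25) and Gpx1 (0.81) lie to the right of all others, and Txnrd2 (-1.98) has the widest bar.

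The genes that make selenocysteine and insert it were also followed. Of the 8 tested, 0 were called by edgeR, DESeq2 or limma-voom, 1 had an unadjusted p under 0.05, and the values lay between -0.20 and 0.10. Sepsecs, the synthase that forms selenocysteine on its tRNA, was at -0.20 ± 0.093 (adjusted p = 0.303), and Secisbp2, which binds the selenocysteine insertion element, at -0.20 ± 0.10 (adjusted p = 0.365). Eefsec, the dedicated elongation factor, was at -0.09 ± 0.087.

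Among heat shock genes the inducible HSP70 pair stood out. Hspa1a had 186, 169 and 76 counts in the PTSO + T. muris libraries and 6, 1 and 1 counts in the T. muris libraries. The pooled level was 6.03 CPM (exact Poisson 95% interval 5.47 to 6.63) with PTSO + T. muris, against 0.104 CPM (0.045 to 0.205) with T. muris. These intervals cover counting error only. The fitted log2 fold change was 5.77 ± 0.40 (adjusted p = 1.25e-10), and its size depends on the few T. muris counts. Hspa1b, the near-identical neighbour, had 72.2, 78.1 and 63.9 CPM with PTSO + T. muris and 25.9, 25.7 and 29.8 CPM with T. muris. The log2 fold change of Hspa1b was 1.41 ± 0.075 (adjusted p = 7.03e-13).

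Reads of the pair cannot be assigned with certainty, because the genes share nearly all of their sequence. Summed into one feature after seeing the data, Hspa1a and Hspa1b had 77.3 ± 8.64 CPM with PTSO + T. muris and 27.2 ± 2.27 CPM with T. muris (SD, n = 3 each). The summed log2 fold change was 1.51 ± 0.077 (adjusted p = 5.65e-12). The sequence before the start site is shown for this pair and for Hspb1, the heat shock genes that rose. It comes from RefSeq (GRCm38.p6), 250 bases up to the start site, 5′ to 3′ in the direction of transcription. Capitals mark matches to GAANNTTC, which with TTCNNGAA was searched on both strands as a pair of inverted heat shock element units.
Hspa1a: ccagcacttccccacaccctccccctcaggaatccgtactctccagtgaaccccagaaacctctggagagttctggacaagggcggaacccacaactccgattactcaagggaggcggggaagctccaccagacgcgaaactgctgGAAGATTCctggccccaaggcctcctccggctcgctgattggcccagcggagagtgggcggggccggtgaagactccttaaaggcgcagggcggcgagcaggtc
Hspa1b: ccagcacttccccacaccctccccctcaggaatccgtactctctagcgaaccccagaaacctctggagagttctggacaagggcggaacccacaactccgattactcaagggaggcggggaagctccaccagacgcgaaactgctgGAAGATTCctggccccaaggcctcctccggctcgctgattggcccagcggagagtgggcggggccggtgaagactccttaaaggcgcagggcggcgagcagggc
Hspb1: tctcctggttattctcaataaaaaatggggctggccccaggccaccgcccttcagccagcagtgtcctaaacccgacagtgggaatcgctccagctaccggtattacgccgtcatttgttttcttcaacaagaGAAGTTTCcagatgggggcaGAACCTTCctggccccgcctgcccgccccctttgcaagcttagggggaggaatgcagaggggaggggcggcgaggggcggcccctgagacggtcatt
These windows lie at chr17:34972157-34972406 (minus strand), chr17:34959239-34959488 (minus strand) and chr5:135887669-135887918 (plus strand), directly upstream of the annotated starts. The Hspa1a and Hspa1b windows were identical at 247 of 250 positions, each with a match 104 bases upstream, and Hspb1 had matches 97 and 117 bases upstream. Of 32851 promoter windows of 300 bases in the same table, 15.1% held at least 1 match to either motif. A match is a description of the sequence, not a site of binding.

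The constitutive chaperone Hspa8 moved the other way from the inducible pair. It had 2207, 2170 and 2264 CPM in PTSO + T. muris libraries, below the 2574, 2469 and 2533 CPM in T. muris libraries, and fell by 0.19 ± 0.030 (adjusted p = 0.000188). Hsph1, a nucleotide exchange factor for HSP70, fell by 0.21 ± 0.039. Hspb1, a small heat shock protein, had 279, 281 and 281 CPM with PTSO + T. muris and 236, 231 and 248 CPM with T. muris, a rise of 0.23 ± 0.038. In the heat shock list of 20 genes, 3 were called higher and 2 lower (25% against 3.31% of all genes), with a median of -0.02. The HSP90 genes Hsp90aa1 and Hsp90ab1 were at 0.06 ± 0.035 and 0.00 ± 0.027, and the cochaperones Dnajb1 and Bag3 at 0.10 ± 0.047 and 0.11 ± 0.078. Of the 16 genes of the list with a promoter entry, 11 held a motif match, among them Hsph1, which fell, and Bag3, which did not pass the test.

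P2rx7 encodes a cation channel opened by extracellular ATP that is best known for triggering inflammasomes. It had 6.81, 6.12 and 5.85 CPM in PTSO + T. muris libraries and 0.525, 0.348 and 1.08 CPM in T. muris libraries, from 115 to 175 and from 9 to 18 counts. The lowest PTSO + T. muris library was thus several fold above the highest T. muris library. The log2 fold change was 3.36 ± 0.29, a 10.3-fold rise with adjusted p = 9.15e-09. P2rx7 was the 1 gene called among 9 P2X and P2Y receptor genes and partners tested (11.1%, against 3.31% of all genes). P2rx4, the neighbouring receptor gene, had 326, 377 and 254 counts with PTSO + T. muris and 439, 406 and 228 with T. muris, a log2 fold change of -0.07 ± 0.11. P2ry2, a receptor for ATP and UTP, was at -0.07 ± 0.093, and Panx1, a channel that releases ATP, at -0.50 ± 0.23 without a call. P2rx2 had only 53 counts over the 6 libraries and a value of 1.66 ± 0.78 (adjusted p = 0.33).

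**Figure D3:**
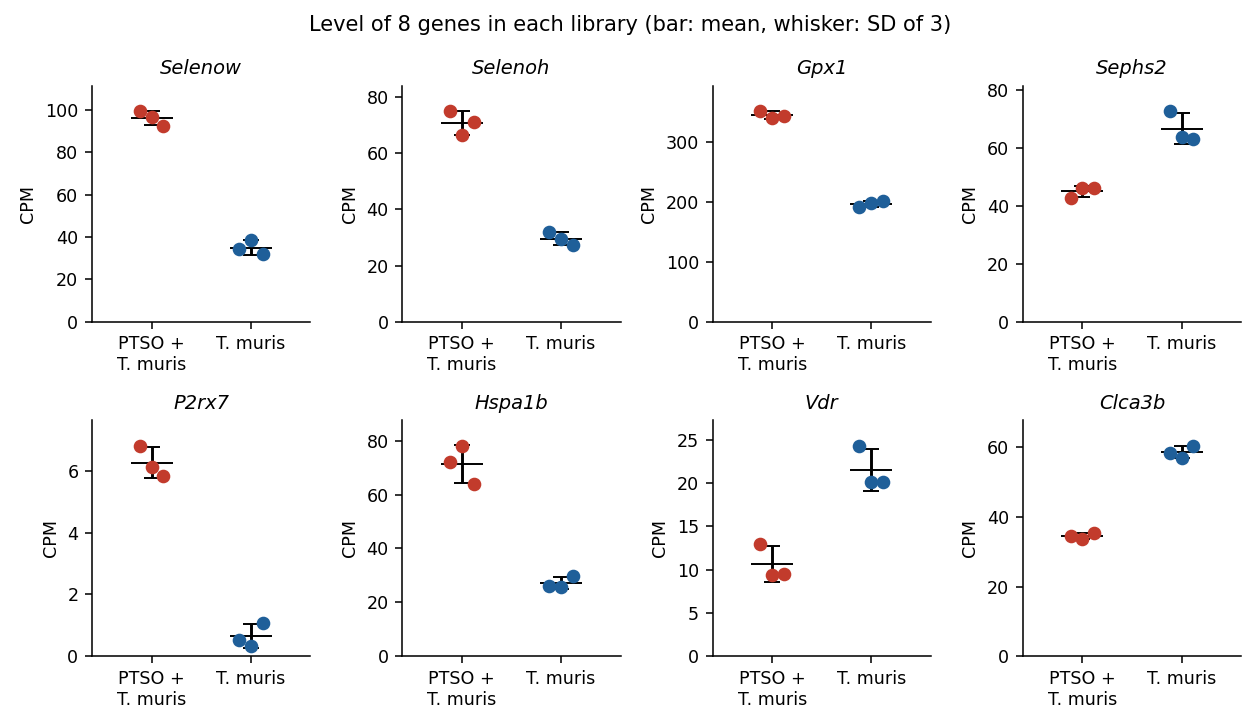
CPM (y axis, from 0) of 8 genes in each library, with PTSO + T. muris in red on the left and T. muris in blue on the right. Bars mark the mean and whiskers the SD of 3 libraries. The groups do not overlap for any of the 8, with Selenow, Selenoh, Gpx1, P2rx7 and Hspa1b higher and Sephs2, Vdr and Clca3b lower in PTSO + T. muris.

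Vdr, the nuclear receptor for vitamin D, fell to 13.01, 9.41 and 9.51 CPM in PTSO + T. muris libraries, against 24.3, 20.2 and 20.1 CPM in T. muris libraries. The log2 fold change was -1.02 ± 0.12 (adjusted p = 5.17e-06). Library 1 was the highest of its group in both, and the groups were still well apart. The partners of Vdr were not called: Rxra was at -0.02 ± 0.092 and Rxrb at 0.13 ± 0.046. The vitamin D target Cyp24a1 had 1 count over the 6 libraries.

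Ion and water transport genes, which move salt and fluid across the epithelium, were called in 1 direction. Of 21 tested, 6 fell and 0 rose, where 1.96% of all genes fell, and the list's median was -0.09. Clca3b, of the chloride channel accessory family, had 34.6, 33.8 and 35.4 CPM with PTSO + T. muris and 58.3, 57.1 and 60.5 CPM with T. muris. The libraries of each group were within a few CPM of each other, and the fall was 0.76 ± 0.064 (adjusted p = 5.05e-09). Near-identical copies in this family can share reads, and Clca3a1 had a value of -0.56 ± 0.28 without a call. Atp1b1, the beta subunit of the sodium pump, had 23.5, 23.8 and 24.7 CPM with PTSO + T. muris and 35.3, 40.2 and 37.7 CPM with T. muris. It fell by 0.65 ± 0.078 (adjusted p = 3.93e-06). The water channel genes Aqp1 and Aqp5 fell by 0.53 ± 0.049 and 0.46 ± 0.061. Aqp1 had 72.5 ± 3.02 CPM with PTSO + T. muris and 105 ± 4.35 CPM with T. muris. Both were called without each of the 6 libraries in turn, and lost the call in the fit of all 12 libraries (adjusted p = 0.0573 for Aqp1 and 0.0582 for Aqp5). The bicarbonate transporter gene Slc4a4 fell by 0.31 ± 0.051, and the sulfate transporter gene Slc26a2 by 0.21 ± 0.055. The call of Slc26a2 ended without 4 of the 6 libraries (adjusted p up to 0.146). Genes of the list that did not pass included Cftr (-0.22 ± 0.20), the sodium channel subunit Scnn1a (-0.43 ± 0.18) and the sodium-hydrogen exchanger Slc9a3 (0.88 ± 0.32).

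Adhesion genes were split. Cdh3, which encodes P-cadherin, had 11.5, 11.1 and 10.3 CPM in PTSO + T. muris libraries and 19.1, 18.1 and 19.7 CPM in T. muris libraries, a fall of 0.79 ± 0.10 (adjusted p = 1.58e-05). The tight junction gene Cldn4 rose by 0.23 ± 0.035, with 968, 1028 and 1020 CPM with PTSO + T. muris and 815, 882 and 879 CPM with T. muris. Epcam, an epithelial adhesion molecule, had 639 ± 28.4 CPM with PTSO + T. muris and 547 ± 3.01 CPM with T. muris and rose by 0.22 ± 0.035. Of 23 cadherin, tight junction and adhesion genes, these 2 rose, and Cdh3 and Cgn fell (17.4% called, against 3.31% of all genes). The value of Cgn, a junction scaffold, was -0.15 ± 0.040, and its call ended without 4 of the 6 libraries (adjusted p up to 0.245). E-cadherin (Cdh1) was at -0.08 ± 0.031. Among 17 laminin and integrin genes, 4 rose and 0 fell, where 1.35% of all genes rose. Lama3, a chain of the basement membrane laminin, had 178, 179 and 174 CPM with PTSO + T. muris and 132, 141 and 143 CPM with T. muris, a rise of 0.35 ± 0.043 (adjusted p = 5.17e-06). Lamb3, a partner chain, and the integrin gene Itgb6 were at 0.15 ± 0.042 and 0.32 ± 0.085, and their calls ended without 4 and 3 of the 6 libraries (adjusted p up to 0.233). The list's count of rises was 2 without library 1 of either group and 1 without library 2 of either group. Without PTSO + T. muris library 3, 4 rose and 1 fell. Keratins Krt7 and Krt23 were lower, at -0.16 ± 0.030 and -0.23 ± 0.057, while Krt8 and Krt18 were at 0.05 ± 0.029 and 0.01 ± 0.029. Krt7 was not called in the fit of 12 libraries (adjusted p = 0.0951). The call of Krt23 ended without 5 of the 6 libraries (adjusted p up to 0.147). The epithelial transcription factor gene Elf3 was at -0.22 ± 0.053, and its call ended without 3 (adjusted p up to 0.209).

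Other genes with a fall of over 0.6 on the log2 scale had varied roles. Chodl, a membrane lectin gene, had 8.33, 8.84 and 10.9 CPM with PTSO + T. muris and 17.9, 18.2 and 21.3 CPM with T. muris, a fall of 1.03 ± 0.12 (adjusted p = 1.74e-06). Ak5, an adenylate kinase, had 6.19, 7.38 and 7.12 CPM with PTSO + T. muris and 12.3, 15.0 and 12.8 CPM with T. muris, a fall of 0.96 ± 0.13. For both genes every PTSO + T. muris library lay below every T. muris library, which the rule that named them required. Cp, the copper-carrying ferroxidase ceruloplasmin, had 50.7, 58.4 and 63.7 CPM with PTSO + T. muris and 87.9, 87.8 and 87.8 CPM with T. muris, a fall of 0.61 ± 0.061 (adjusted p = 5.7e-07). It was the 1 gene called of 11 iron and copper genes (9.09%, against 3.31% of all genes). Glipr2 fell by 0.74 ± 0.14 and Cysltr1, a leukotriene receptor gene, by 0.80 ± 0.18. The calls of Dclk3 (-1.02 ± 0.28), Vezf1 (-0.82 ± 0.20), P3h2 (-0.73 ± 0.19), Tppp3 (-0.74 ± 0.18), Cysltr1 and the nuclear receptor gene Rorb (-0.65 ± 0.18) were unstable (adjusted p up to 0.217). Of the 6 fits that left out a library, Rorb was called in 0, Dclk3 and P3h2 in 1, Vezf1 in 2, Cysltr1 in 4 and Tppp3 in 5. Among further rises, Dynap had 11.5, 11.6 and 7.27 CPM with PTSO + T. muris and 4.61, 5.41 and 5.48 CPM with T. muris (0.99 ± 0.17, not called in the fit of 12 libraries at adjusted p = 0.105), and the adhesion molecule gene Igsf11 rose by 0.47 ± 0.090. Dact1 (0.96 ± 0.27), Nectin4 (0.67 ± 0.18), Tbc1d30 (0.60 ± 0.16) and Acy1 (0.49 ± 0.12) were called in the fit of 6 libraries but lost the call without 4 or more of them (adjusted p up to 0.297).

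The mitochondrial ribosomal RNA genes were higher, and the mitochondrial mRNAs were not. The large ribosomal RNA mt-Rnr2 had 350, 320 and 338 CPM with PTSO + T. muris and 211, 167 and 177 CPM with T. muris, a rise of 0.86 ± 0.099 (adjusted p = 0.015). The small ribosomal RNA mt-Rnr1 had 380, 337 and 355 CPM with PTSO + T. muris and 284, 248 and 250 CPM with T. muris, a rise of 0.45 ± 0.054 (adjusted p = 0.000237). No library of one group overlapped the other for either RNA. The call of mt-Rnr2 ended without PTSO + T. muris library 1 (adjusted p = 0.111) or 3 (adjusted p = 0.0868). Of the 13 mitochondrial mRNAs, 0 were called by edgeR, 0 had an unadjusted p under 0.05 and limma-voom called 1 lower, with values from -0.68 to 0.35, and together they took 1.19% ± 0.113 of the counts with PTSO + T. muris and 1.32% ± 0.178 with T. muris. Nuclear copies of the ribosomal RNA genes can share reads, and carry-over of ribosomal RNA in library preparation was not tested.

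Immediate early genes that passed the test were higher by small amounts. Of 24 immediate early genes tested, 6 rose and 0 fell, with a median of 0.05, where 1.35% of all genes rose. Fos, a member of the AP-1 transcription factor dimer, had 71.4, 74.3 and 70.5 CPM with PTSO + T. muris and 56.6, 55.8 and 55.0 CPM with T. muris (0.37 ± 0.052, adjusted p = 5.17e-05). Its partners Junb and Jun rose by 0.26 ± 0.050 and 0.29 ± 0.065, and Ier2 by 0.28 ± 0.051. Fosl1 and Ier5, at 0.37 ± 0.094 and 0.22 ± 0.050, lost the call without 5 and 3 of the 6 libraries (adjusted p up to 0.148), and Jun without T. muris library 1 (adjusted p = 0.109). The list's count of rises was 4 without PTSO + T. muris library 2, T. muris library 1 or T. muris library 2, and 1 gene fell without PTSO + T. muris library 1. In the fit of all 12 libraries Fos was not called (adjusted p = 0.199). Egr1 was at 0.23 ± 0.083 and Fosb at 0.88 ± 0.28, neither called. The cytokine gene Lif, the 1 gene called of 16 EGF receptor ligands and wound repair genes, rose by 0.33 ± 0.074 and lost the call without T. muris library 2 (adjusted p = 0.064). Dusp4, the 1 gene called of 17 MAPK feedback genes, was at 0.20 ± 0.041 and lost the call without PTSO + T. muris library 2 (adjusted p = 0.0506). These last lists held 6.25% and 5.88% called genes, close to the 3.31% of all genes. The list of 19 p53 targets, where Gadd45a was the 1 called (0.33 ± 0.058), held 5.26%, and that of 22 DNA replication genes, where Mcm3 was (0.15 ± 0.040, with the call lost without 5 of the 6 libraries at adjusted p up to 0.153), held 4.55%. Without PTSO + T. muris library 3 the EGF receptor ligand and DNA replication lists each held 4 called genes.

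Ligands and feedback genes of the TGF-beta family included 3 rises among 18, where 1.35% of all genes rose. Inhba, the activin subunit gene, had 130, 126 and 120 CPM with PTSO + T. muris and 99.5, 100.4 and 98.2 CPM with T. muris, a rise of 0.34 ± 0.046 (adjusted p = 2.98e-05). Smad7, an inhibitor of the pathway, rose by 0.33 ± 0.062, and its call ended in the fit of 12 libraries (adjusted p = 0.0809). Tgif1 was at 0.13 ± 0.036, with its call lost without 5 of the 6 libraries (adjusted p up to 0.262). The aryl hydrocarbon receptor is a ligand-activated sensor of foreign compounds. Of 8 genes tested, which are the receptor gene Ahr, its partner Arnt and targets, Cyp1b1 and Tiparp rose and Aldh3a1 fell (37.5% called, against 3.31% of all genes). Cyp1b1, a monooxygenase, had 551, 519 and 518 CPM with PTSO + T. muris and 430, 386 and 398 CPM with T. muris (0.39 ± 0.039, adjusted p = 2.37e-07). Tiparp, a repressor of the receptor, rose by 0.44 ± 0.066, while Aldh3a1, an aldehyde dehydrogenase, fell by 0.46 ± 0.084. Tiparp (adjusted p = 0.358) and Aldh3a1 (adjusted p = 0.296) were not called in the fit of 12 libraries.

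Stress pathway genes showed mixed directions. In the integrated stress response, 2 of 24 genes rose and 5 fell, where 1.35% of all genes rose and 1.96% fell. Ppp1r15a, a phosphatase subunit that restores translation, and Ddit4, an inhibitor of mTORC1, rose by 0.37 ± 0.058 and 0.30 ± 0.045. Asns and Psat1, which make asparagine and serine, fell by 0.27 ± 0.043 and 0.28 ± 0.047, and Nupr1 fell by 0.31 ± 0.041. Mthfd2 and Gars were at -0.20 ± 0.045 and -0.15 ± 0.036, with their calls lost without 2 and 3 of the 6 libraries (adjusted p up to 0.137), and the regulator Atf4 was at -0.03 ± 0.041. The list's count of falls was 3 without PTSO + T. muris library 2 or T. muris library 3, and 8 without PTSO + T. muris library 1. Asns lost the call in the fit of 12 libraries (adjusted p = 0.131). In the unfolded protein response of the endoplasmic reticulum, Calr was the 1 called gene of 21 (-0.14 ± 0.033), and its call ended without 3 of the 6 libraries (adjusted p up to 0.0985). That is 4.76% of the list, close to the 3.31% of all genes.

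NRF2 drives genes for glutathione and detoxification when thiols are oxidised or alkylated. Of 31 of its targets and other antioxidant genes tested, 1 rose and 3 fell (12.9%, against 3.31% of all genes), with a median of -0.09 and 25 values below 0. Osgin1 and Me1 fell by 0.25 ± 0.048 and 0.18 ± 0.037. Gsta4, a glutathione transferase, had 8.84, 11.7 and 11.9 CPM with PTSO + T. muris and 15.9, 14.2 and 17.9 CPM with T. muris and fell by 0.57 ± 0.12. The autophagy receptor gene Sqstm1 was at 0.15 ± 0.035, with its call lost without 4 of the 6 libraries (adjusted p up to 0.094). The call of Me1 ended without PTSO + T. muris library 2 (adjusted p = 0.0776), and that of Gsta4 without T. muris library 3 (adjusted p = 0.0766). In the fit of all 12 libraries Osgin1 was not called (adjusted p = 0.821). Widely used markers of NRF2 were not called, with Hmox1 at 0.14 ± 0.060, Gclm at -0.09 ± 0.042, Slc7a11 at -0.13 ± 0.043 and Srxn1 at -0.04 ± 0.053.

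The called genes of the NF-kB target and cytokine list were lower with PTSO, while the list as a whole had no direction. Il33, an alarmin released by damaged epithelium that helps drive responses to worms, had 612, 622 and 646 CPM in PTSO + T. muris libraries and 792, 751 and 746 CPM in T. muris libraries. It fell by 0.28 ± 0.034 (adjusted p = 4.49e-06), with no overlap. Cxcl5, a neutrophil chemokine, had 39.9, 37.1 and 35.2 CPM with PTSO + T. muris and 48.5, 49.7 and 47.6 CPM with T. muris and fell by 0.38 ± 0.068, a call that ended in the fit of 12 libraries (adjusted p = 0.22). Ccl2, a monocyte chemokine, was at -0.93 ± 0.24 with 1.97 ± 0.233 CPM with PTSO + T. muris and 3.73 ± 0.231 CPM with T. muris. Its call was lost without 4 of the 6 libraries (adjusted p up to 0.129). These were the 3 called among 25 NF-kB targets and cytokines tested (12%, against 3.31% of all genes). The list's median was -0.02, with 12 values above 0 and 13 below. Its count of falls was 2 or 3 with each library left out, and 1 gene rose without PTSO + T. muris library 3. Tnf (-0.24 ± 0.23), Cxcl1 (0.16 ± 0.14) and Nfkbia (-0.11 ± 0.088) did not pass. The epithelial cytokine genes Tslp and Il25 had 8 and 3 counts over the 6 libraries. Of 25 interferon-stimulated and antigen presentation genes 1 was called, or 4%, close to the 3.31% of all genes. This was Tapbp, a peptide-loading factor, at -0.16 ± 0.039, and its call ended without 3 of the 6 libraries (adjusted p up to 0.0955). Most mucus, goblet and antimicrobial genes were too low to test. Only 4 of 23 entered the fit, and 0 were called by edgeR, DESeq2 or limma-voom or had an unadjusted p under 0.05, with S100a9 at -0.63 ± 0.33 (adjusted p = 0.385).

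Called genes of mitosis and glycolysis were higher with PTSO, by small amounts. Of 20 mitosis genes, 9 were called higher and 0 lower, or 45% of the list where 1.35% of all genes rose, and all 20 had values above 0 with a median of 0.16. All genes tested had a median of 0.003, with 7362 values above 0 and 7118 below. Top2a, which untangles DNA before division, had 1039, 993 and 932 CPM with PTSO + T. muris and 924, 854 and 868 CPM with T. muris (0.16 ± 0.038), and its call ended without 4 of the 6 libraries (adjusted p up to 0.124). Cenpf, a kinetochore gene, rose by 0.25 ± 0.047 (adjusted p = 0.0014) and was called without each of the 6 libraries in turn, and it was the 1 of the 9 for which this held. In the fit of all 12 libraries Cenpf was not called either (adjusted p = 0.526). The count of 9 rested on single libraries. It was 2 without PTSO + T. muris library 1 or 2, 3, 1 and 4 without T. muris library 1, 2 or 3, and 11 without PTSO + T. muris library 3. The list's median stayed between 0.13 and 0.18.

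Of 28 glycolysis and hypoxia genes, 8 were called higher and 0 lower (28.6%, where 1.35% of all genes rose), with 24 values above 0 and a median of 0.10. Bnip3, a mitophagy receptor gene, had 127, 141 and 151 CPM with PTSO + T. muris and 117, 120 and 113 CPM with T. muris (0.26 ± 0.053). The hexokinase gene Hk2 rose by 0.20 ± 0.045, and the vasodilator peptide gene Adm, at 0.64 ± 0.15, had 9.58, 11.1 and 8.70 CPM with PTSO + T. muris and 6.59, 6.65 and 5.54 CPM with T. muris. The glucose transporter gene Slc2a1 was at 0.16 ± 0.036. Each of these 4 lost the call without at least 1 library: Bnip3 without T. muris library 3 (adjusted p = 0.0503), Hk2 without PTSO + T. muris library 2 (adjusted p = 0.0807), Adm without either of these (adjusted p up to 0.115) and Slc2a1 without 3 libraries (adjusted p up to 0.09). In the fit of all 12 libraries these 4 were not called (adjusted p from 0.0846 for Adm to 0.701 for Bnip3). The list's count of rises was 1 without PTSO + T. muris library 2, 2 and 4 without T. muris library 3 or 2, and 5 without T. muris library 1. Gapdh counts were erratic, at 3266, 629 and 392 with PTSO + T. muris and 9217, 7678 and 510 with T. muris, and Gapdh was not called. Its many processed copies in the genome can share its reads.

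The called cholesterol synthesis genes were all lower. Of 24 tested, 4 were called lower and 0 higher (16.7%, where 1.96% of all genes fell), with 21 values below 0 and a median of -0.10. Sqle, which forms the first oxygenated sterol precursor, had 154, 149 and 152 CPM with PTSO + T. muris and 173, 177 and 180 CPM with T. muris and fell by 0.22 ± 0.041, and its call ended in the fit of 12 libraries (adjusted p = 0.104). Msmo1 was at -0.15 ± 0.038, with the call lost without 3 of the 6 libraries (adjusted p up to 0.183). Of 31 proteasome subunits and 12 Wnt targets, 0 were called by edgeR, DESeq2 or limma-voom, and 0 and 5 had an unadjusted p under 0.05. The closest were Psmd6 at -0.09 ± 0.047 (adjusted p = 0.356) and the Wnt inhibitor Notum at -0.74 ± 0.25 (adjusted p = 0.116). The plot of list members shows the tight spread of the mitosis and cholesterol lists beside the wide one of the selenoproteins.

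**Figure D4:**
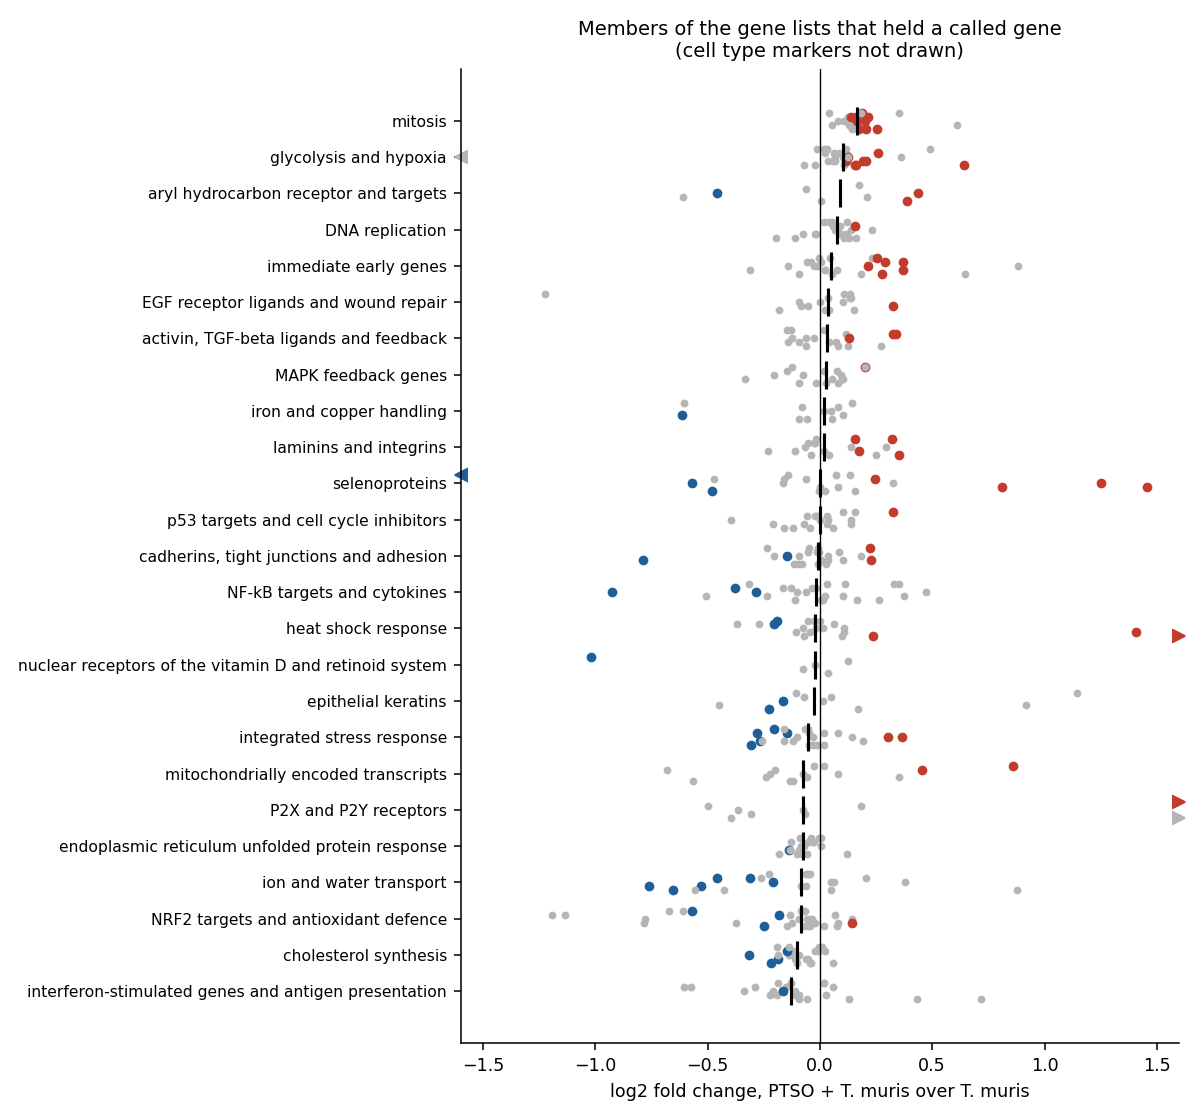
Log2 fold change of PTSO + T. muris over T. muris (x axis) for the members of the 25 gene lists that held a called gene, ordered by median, with cell type marker lists not drawn. Points are genes (red called higher, blue called lower, grey not called), black strokes are list medians, and 5 members beyond 1.6 (Hspa1a, P2rx2, P2rx7, Txnrd2 and Gapdh) are drawn as triangles at the edge. Mitosis has the highest median, at 0.16.

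Whether PTSO acted differently with and without antigens was tested as the difference between PTSO + T. muris over T. muris and PTSO over Control, in one fit of all 12 libraries. In edgeR's quasi-likelihood test 0 of 15267 genes were called (0%), with 1181 at an unadjusted p under 0.05 and a lowest adjusted p of 0.609. DESeq2 called 4. In the same fit PTSO against Control called 802 genes (5.25%). The 2 comparisons share no library, though they share one estimate of spread. Of the 479 genes called with antigens, 425, or 88.7%, had the same sign without them, against 61.2% of all genes tested. Control libraries 2 and 3 were also left out, a choice made after seeing the data that kept Control library 1 alone in its group. The shares were then 94.2% and 59.3%. The interaction count rose when Control library 1 alone was left out, as given in the last paragraph. Values of single genes are given below without Control libraries 2 and 3 only, not without Control library 1. Which of the Control libraries are typical was not tested.

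In that fit Selenow changed by 1.46 ± 0.084 with antigens and 1.26 ± 0.083 without. Selenoh changed by 1.25 ± 0.085 with antigens and 1.26 ± 0.086 without, and Gpx1 by 0.81 ± 0.048 with antigens and 0.76 ± 0.048 without. For Selenow, Selenoh and Gpx1 the differences were 0.20, -0.01 and 0.05, and 0.10, 0.17 and 0.07 without Control libraries 2 and 3. P2rx7 was at 3.35 ± 0.37 with antigens and 2.42 ± 0.36 without, a difference of 0.93 ± 0.53 (SE). Without Control libraries 2 and 3 the difference for P2rx7 turned to -0.22, with 3.58 for cells without antigens. Sephs2 was at -0.57 ± 0.085 with antigens and -0.27 ± 0.084 without. Vdr was at -1.02 ± 0.13 with antigens and -0.63 ± 0.12 without. Hspb1, the small heat shock protein gene, was at 0.23 ± 0.048 with antigens and 0.02 ± 0.048 without. Adm was at 0.64 ± 0.16 with antigens and -0.22 ± 0.16 without (unadjusted p = 0.000962). Leaving out Control libraries 2 and 3 brought Adm without antigens to 0.10, the same sign as with antigens. The smallest p-values for the difference belonged to Tmem150a, Cdkn2a, Tfrc and Il24, none of which was called with antigens. Tmem150a had 73, 56 and 123 counts with PTSO + T. muris and 71, 8 and 7 with T. muris, against 9, 13 and 3 with PTSO and 139, 163 and 134 with Control. Tfrc, the transferrin receptor gene, was at -0.09 ± 0.060 with antigens and 0.26 ± 0.060 without, and the cytokine gene Il24 at -0.19 ± 0.17 with antigens and 0.84 ± 0.18 without. The tumour suppressor gene Cdkn2a was at 0.14 ± 0.059 with antigens and -0.22 ± 0.059 without. Without Control libraries 2 and 3 the values in cells without antigens were 0.11 for Tfrc, 0.62 for Il24 and -0.11 for Cdkn2a. The plot of named genes in both backgrounds shows most points near the line of equal change, with Txnrd2, P2rx7 and Adm among those away from it. The values of Txnrd2, P2rx7 and Adm without antigens moved when Control libraries 2 and 3 were left out.

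**Figure D5:**
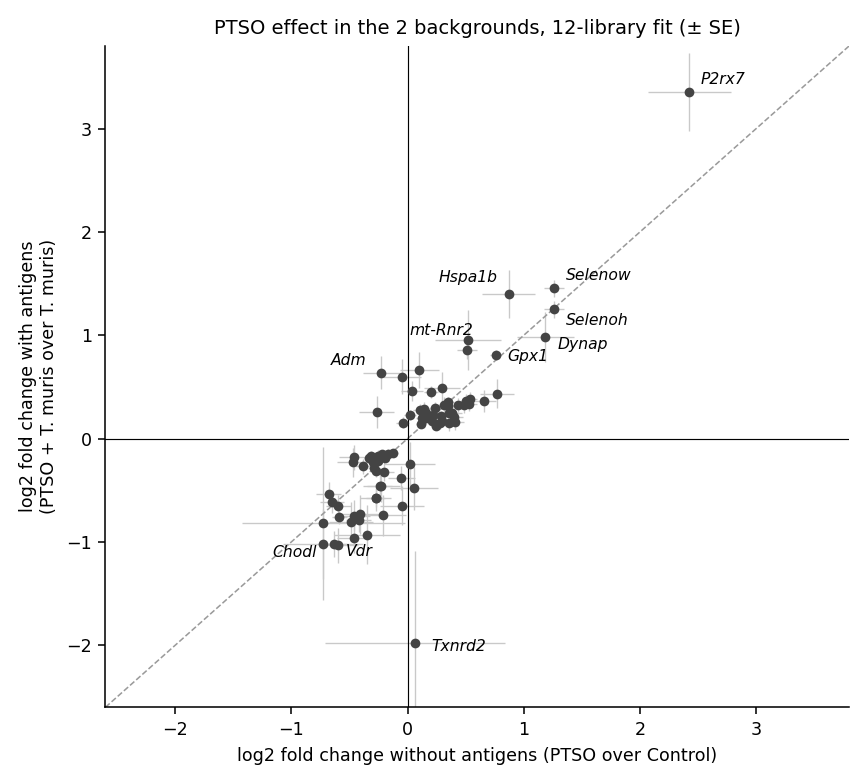
Log2 fold change of PTSO over Control without antigens (x axis) and of PTSO + T. muris over T. muris with antigens (y axis), from the fit of 12 libraries, for 84 named genes called with antigens. Hspa1a, at 5.77 with antigens and 5.85 without, lies outside the axes, bars are ± SE and the dashed line marks equal change. Selenow, Selenoh and Gpx1 lie near the line, and Txnrd2 lies at -1.98 with antigens and 0.07 without, with wide bars (-0.89 without antigens when Control libraries 2 and 3 are left out).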

How the data were processed

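Per library and gene, the authors deposited raw read counts, whole numbers with a different total in each library, which were used as counts unchanged. The submitters' processing notes name HISAT, mm39 and DESeq2 without saying what each was used for. For the counting program, annotation release and strand setting nothing is given in the sources used here. Reads of a gene and an overlapping or antisense neighbour therefore cannot be told apart. Symbols were taken by identifier from GENCODE M21, of an earlier build, for 53620 of 55137 identifiers; 1336 further identifiers are unannotated loci (0.345% of counts in the 6 libraries), tested but not named.

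The 6 libraries were fitted alone. filterByExpr of edgeR 4.0.16 (R 4.3.3) left 14480 genes with 99.91% of the counts, TMM scaled the libraries, and a quasi-likelihood F-test with robust dispersion compared PTSO + T. muris with T. muris (4 residual degrees of freedom). Benjamini-Hochberg adjustment ran over these genes, and calls were made at adjusted p under 0.05. The biological coefficient of variation was 6.82%. SE values were obtained from the quasi-likelihood F as |log2 fold change| / √F. CPM are TMM-scaled. An exact permutation test of 3 against 3 cannot go below p = 0.1 and was not used. The interaction was fitted on all 12 libraries. No 2 libraries of a group agreed within sampling noise (chi-square per degree of freedom 4.14 to 7.06). The fit of 6 libraries was run on simulated counts, and the interaction fit was not.

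The genes named are the 14 called genes that rose most and the 14 that fell most, given a mean log2 CPM of 1 or more, no overlap between groups and a symbol that is not a predicted, clone or pseudogene name; up to 4 called members by smallest p of each of 32 gene lists (651 entries), or the member with the smallest p where none was called; all selenoprotein genes, Hspa1a, Hspa1b, Hspa8, mt-Rnr1 and mt-Rnr2; and the 4 smallest interaction p-values. Other list members were named after their values were seen, as uncalled members or to complete a list's calls. The members, lists and tests were chosen with earlier results of these data known, and lists are described by counts and medians with no test. Alternatives were RLE and upper-quartile scaling, other filters, DESeq2 1.42.0, limma-voom (limma 3.58.1), no robust estimation, all 12 libraries in the fit, a replicate block, and each library left out. Plots used matplotlib 3.10.9 (Python 3.11.15). Some members that these rules name are not reported here.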

Additional observations from a re-analysis of the deposited data

How the results depend on the processing

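The 479 genes called in PTSO + T. muris against T. muris became 94 with all 12 libraries in the fit, and ranged from 212 to 613 with each library left out. The other alternatives gave 370 (no robust estimation) to 594 (no filter on low counts), with 474 by DESeq2, 425 of them shared. Upper-quartile scaling, chosen after seeing the data, gave 180 higher and 328 lower. No called gene named here changed sign under any alternative run, while the uncalled Txnrd3, Selenom and Selenon, all within 0.006 of 0, did. With all 12 libraries in the fit, 52 called genes named here lost the call, and without PTSO + T. muris replicate 2, 29 did. In all, 84 genes, 33 higher and 51 lower, were called under every alternative run. The causes were not tested.

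Same-numbered libraries did not deviate together (correlations -0.049, 0.004 and -0.049), so the numbers were not taken as pairs. With the replicate number as a block, genes called in PTSO + T. muris against T. muris numbered 559.

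The interaction count of 0 became 45 with no filter on low counts, 4 with DESeq2, 1 with no robust estimation, 1 with the replicate block and 0 to 1279 with each library left out, the 1279 without Control replicate 1. Without Control libraries 2 and 3, chosen after seeing the data, Control library 1 stood alone in its group. The difference of the first-ranked gene, Nfya, was then 2.70. With 3 libraries a group, genes of few counts, such as Txnrd2 and P2rx2, have wide errors.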
